A study of Mus musculus with 16 samples.

Results

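Integrin subunits are the membrane proteins that T cells use to hold on to other cells and to the matrix between cells. The 10 genes described here are Itgal, Itgb2, Itga4, Itgb1, Itgb7, Itgae, Itgav, Itgb3, Itga1 and Itga6. They were taken by gene symbol from a matrix of RNA-seq read counts with 34573 gene symbols. All 10 were in the matrix, and all 10 passed a filter on low counts that kept 14332 genes.

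The libraries came from CD8+ T cells of C57BL/6 mice in 4 states, with 3 libraries per state and 0.2 M cells per library. Tn cells were naive cells from the spleen, sorted at day 0 as CD8+ CD44- CD62L+. The cells of the other 3 states had been purified as naive CD8+ cells, stimulated in culture with antibodies to CD3e and CD28 (10 µg/ml each) and given IL-2, a T cell growth factor, at 300 U/ml from the first night on. Of these, Teff1 was the PD-1+ TIM-3- fraction at day 2, Teff2 the PD-1+ TIM-3- fraction at day 5 and Tex the PD-1+ TIM-3+ fraction of the day 5 cultures. Both surface proteins used for this gate are inhibitory receptors. Tex, a name used for exhausted cells, here means a sort gate in a 5-day culture without infection or tumour. The labels do not say whether replicates came from separate mice, so a p-value here reflects the spread among the libraries alone, and that spread may be technical. Levels below are in CPM, read counts scaled to the size of each library and corrected for differences in composition.

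An integrin is a pair of an alpha and a beta chain. Which chains pair decides the ligand, and most chains have several partners. On T cells the alpha L beta 2 pair (LFA-1) binds ICAM proteins on other cells, alpha 4 beta 1 (VLA-4) binds VCAM-1 and fibronectin, and alpha 4 beta 7 binds MAdCAM-1 in vessels of the gut. Alpha E beta 7 (the CD103 integrin) binds E-cadherin on epithelium, and alpha V chains bind RGD motifs in proteins such as vitronectin and latent TGF-beta. Alpha 1 beta 1 binds collagen and alpha 6 beta 1 binds laminin. Integrins on a resting T cell are largely inactive, and signals inside the cell that reach talin and kindlin at the beta tail switch them on.

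The libraries held 14.7 to 21.2 M counts, and 3 counts in a library corresponded to 0.142 to 0.205 CPM. The summed level of 8 CD8 T cell markers was 2652 to 5410 CPM in the 12 libraries, and all 8 were detected in each Tn library. Markers of B cells, macrophages and monocytes, and NK cells had their highest mean in Tn and were uneven there. The 8 B cell markers summed to 552 CPM in Tn replicate 1, 44.6 in replicate 2 and 1108 in replicate 3, beside at most 9.64 in any activated library. Macrophage and monocyte markers summed to 70.6 to 269 CPM in Tn and at most 11.5 in the activated libraries. NK cell markers summed to 3.61 to 119 CPM in Tn and 2.95 to 28.0 in the activated libraries. Tn replicate 2 was the lowest of the Tn libraries for these 3 lists, although each of the 8 B cell and 6 NK cell markers was detected in it. In bulk RNA, fewer cells of a type and less RNA per cell cannot be told apart. Markers of CD4 and regulatory T cells averaged 38.3 CPM in Tn and 39.9 to 47.0 in the activated states, and those of dendritic cells 10.6 in Tn and 3.16 to 12.7. Where leaving out Tn replicates 1 and 3 ends a call of 1 of the 10 genes, that is said beside it. Such a fit leaves 1 Tn library, which is assumed to vary like the libraries of the other states, so a lost call there does not show a smaller change.

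Most of the called changes of the 10 genes lay between naive and activated cells. Compared with Tn, Itgb1 and Itgav rose and Itga4, Itgb7, Itgae, Itgb3 and Itga1 fell in Teff1, so that 2 of 10 were higher and 5 of 10 lower. Over all 14332 genes tested 48.9% were called in that comparison, 24.5% higher and 24.5% lower. In Teff2 compared with Tn 2 of 10 rose and 5 of 10 fell, with Itga6 lower and Itgb3 not called, where 25.6% of all genes rose and 23.3% fell. In Tex compared with Tn 2 of 10 rose and 4 of 10 fell, where 52.9% of all genes were called, 27.3% higher and 25.6% lower. The median log2 difference of the 10 genes was -1.09, -1.05 and -1.09 in the 3 comparisons, beside medians over all genes of -0.06, 0.0025 and 0.0016. Calls are from edgeR's quasi-likelihood test at a Benjamini-Hochberg adjusted p under 0.05 over all genes tested. The 3 comparisons share the Tn libraries. With upper-quartile scaling, which moved the median of all genes in Teff1 compared with Tn to -0.20, 7 of the 10 genes were called lower in that comparison, the further 2 being Itgb2 and Itga6. Without Teff1 replicate 3 the number called in Teff1 was 4, while it was 6 to 7 in Teff2 and Tex when any 1 library was left out. With Tn replicate 2 as the only Tn library, 3 of the 10 genes were called in Teff1 (Itga4, Itgb7 and Itgb1), 6 in Teff2 and 6 in Tex. In that fit the share of all 15080 genes called was 20.0% in Teff1 (9.96% higher, 10.0% lower), 22.1% in Teff2 (11.3% higher, 10.8% lower) and 26.2% in Tex (13.1% higher, 13.1% lower).

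**Figure D1:**
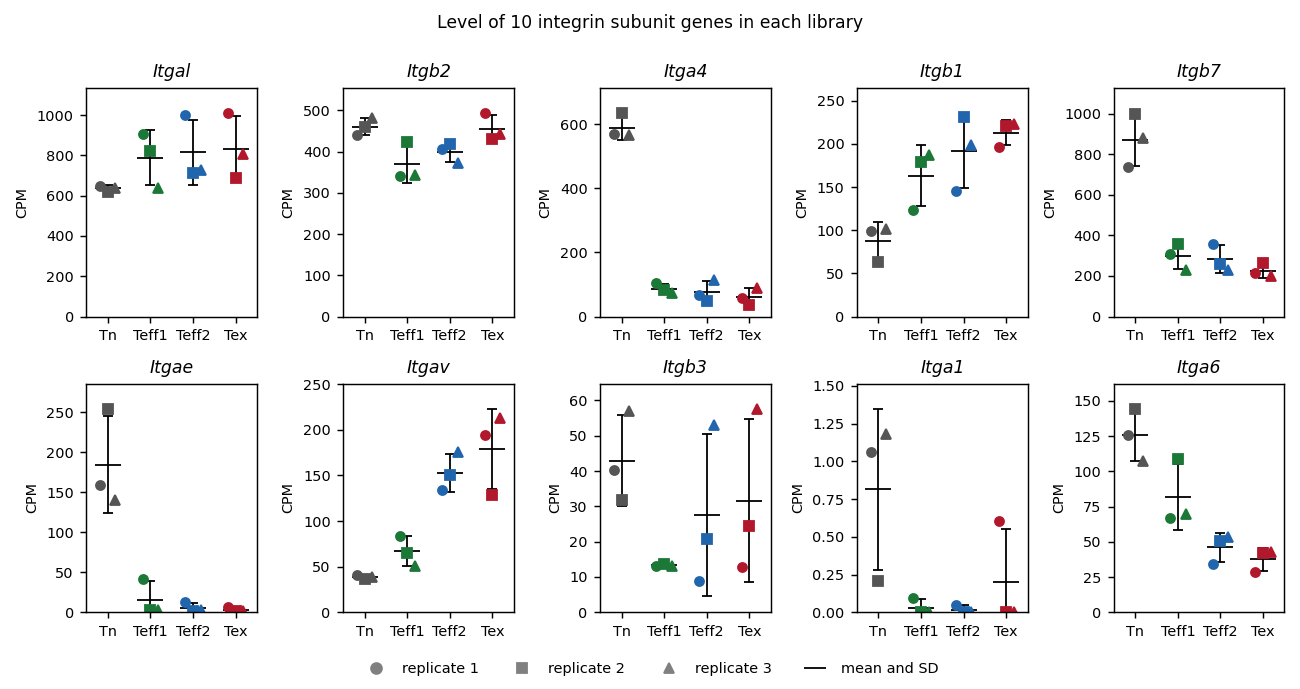
Level of each of the 10 integrin genes (CPM on TMM-scaled library sizes, linear axis from 0) in the 12 libraries, 1 panel per gene; marker shapes are replicates 1 to 3, and the bar with whiskers is the mean and SD of the 3 libraries of a state. Itga4 and Itgb7 lie lower in every activated library than in every Tn library, Itgb1 and Itgav lie higher, and Itgae is highest in replicate 1 within each activated state.

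Itga4 encodes the alpha 4 chain, shared by VLA-4 and alpha 4 beta 7 (chr2:79255426-79333114, assembly GRCm38, the mm10 build). Its level was 568, 634 and 566 CPM in the 3 Tn libraries, 105, 81.2 and 72.7 in Teff1, 67.8, 48.1 and 114 in Teff2 and 56.8, 35.7 and 90.0 in Tex. Every activated library lay below every Tn library, and the 3 activated states overlapped. The log2 difference from Tn was -2.78 in Teff1 (SE 0.36, adjusted p = 1.22e-04 by edgeR), which is 6.85-fold lower, -2.95 in Teff2 (SE 0.36, adjusted p = 7.91e-05) and -3.28 in Tex (SE 0.37, adjusted p = 3.48e-05), which is 9.70-fold lower.

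Itgb7 encodes the beta 7 chain, the partner of alpha 4 and of alpha E (chr15:102215994-102233405). It was at 739.7, 999.6 and 879.9 CPM in Tn, 307, 357 and 231 in Teff1, 359.8, 258 and 230.5 in Teff2 and 215, 266 and 199 in Tex. The Tn libraries stood above all 9 activated libraries, which overlapped among themselves. Itgb7 fell 2.93-fold in Teff1 (log2 -1.55, SE 0.22, adjusted p = 2.29e-04 by edgeR), 3.09-fold in Teff2 (log2 -1.63, SE 0.22, adjusted p = 1.56e-04) and 3.86-fold in Tex (log2 -1.95, SE 0.23, adjusted p = 4.34e-05).

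Itgb1 encodes the beta 1 chain, which pairs with alpha 4, alpha 1, alpha 6 and several other alpha chains (chr8:128685654-128733579). Its level was 99.0, 63.4 and 102 CPM in Tn, 123, 179 and 188 in Teff1, 146, 232 and 199 in Teff2 and 196, 220.4 and 223 in Tex. It thus moved opposite to Itgb7, and again no activated library overlapped with Tn. The rise was 1.85-fold in Teff1 (log2 0.89, SE 0.23, adjusted p = 0.00793 by edgeR), 2.18-fold in Teff2 (log2 1.12, SE 0.23, adjusted p = 0.00209) and 2.42-fold in Tex (log2 1.27, SE 0.23, adjusted p = 8.70e-04).

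Promoter sequences are shown for Itga4 and Itgb7, which fell, and for Itgb1 and Itgav, which rose, so that the start regions of genes that moved in opposite directions can be read side by side. They are RefSeq sequences of assembly GRCm38.p6, 250 bases before to 50 bases after an annotated transcription start, written 5′ to 3′ on the strand of the gene. Capitals mark CACCC or its reverse complement GGGTG, the core letters of the motif of KLF factors. The spans are chr2:79255176-79255475 (+) for Itga4, chr15:102231886-102232185 (-) for Itgb7, chr8:128685404-128685703 (+) for Itgb1 and chr2:83724147-83724446 (+) for Itgav. The windows of Itga4 and Itgb1 lie at the start of the gene locus given here. Those of Itgb7 and Itgav lie within the locus, at a start further inside the gene.
Itga4: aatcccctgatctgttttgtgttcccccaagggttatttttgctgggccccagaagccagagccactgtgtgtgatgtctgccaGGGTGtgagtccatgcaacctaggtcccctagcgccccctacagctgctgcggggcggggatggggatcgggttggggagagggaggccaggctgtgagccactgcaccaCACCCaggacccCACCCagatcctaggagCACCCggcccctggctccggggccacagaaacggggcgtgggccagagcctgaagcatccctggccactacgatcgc
Itgb7: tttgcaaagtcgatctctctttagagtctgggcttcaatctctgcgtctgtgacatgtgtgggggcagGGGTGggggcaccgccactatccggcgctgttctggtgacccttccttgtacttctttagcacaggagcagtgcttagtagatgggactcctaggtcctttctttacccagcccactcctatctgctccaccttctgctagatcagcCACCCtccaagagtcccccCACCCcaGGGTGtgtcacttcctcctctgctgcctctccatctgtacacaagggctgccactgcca
Itgb1: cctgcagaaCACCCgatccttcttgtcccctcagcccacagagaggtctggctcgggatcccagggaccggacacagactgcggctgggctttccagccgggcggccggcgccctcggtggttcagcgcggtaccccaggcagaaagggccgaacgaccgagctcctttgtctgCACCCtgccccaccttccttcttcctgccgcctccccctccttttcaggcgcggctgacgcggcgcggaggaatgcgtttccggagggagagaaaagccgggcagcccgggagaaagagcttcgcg
Itgav: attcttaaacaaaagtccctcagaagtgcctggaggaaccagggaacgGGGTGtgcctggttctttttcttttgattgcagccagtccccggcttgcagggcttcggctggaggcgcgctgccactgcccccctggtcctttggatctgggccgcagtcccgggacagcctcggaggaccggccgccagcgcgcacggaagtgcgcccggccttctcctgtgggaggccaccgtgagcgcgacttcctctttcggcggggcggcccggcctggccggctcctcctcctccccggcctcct
Itga4 and Itgb7 each held 4 such matches, Itgb1 held 2 and Itgav held 1. Of the 32851 mouse promoters of this length, 57.5% hold at least 1 match and 3.10% hold at least 4. A promoter entry was found for 5 of the 10 genes. That of Itga1, which was called lower in Teff1 and Teff2 at few counts, held 2 matches, as many as that of Itgb1. A match to TGTGGT (Runx, or ACCACA on the other strand) was found in the promoter of Itga4 and of no other of the 5, beside 16.8% of all promoters. CAGAC (SMAD, or GTCTG) was found 3 times in Itgb1, 2 times in Itgb7, once in Itga4 and Itga1 and not in Itgav, beside 49.6% of all promoters with at least 1. GGAAGT (ETS, or ACTTCC) was found 2 times in Itgav and once in Itgb7 and Itga1, beside 23.8% of all. CACCTG (E-box, or CAGGTG) was in none of the 5 windows, beside 20.2% of all. These matches describe letters in these windows only, and a link between them and the direction of change was not tested.

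Itgae encodes the alpha E chain, known as CD103 and used as a mark of CD8+ T cells that stay in epithelia (chr11:73090505-73147449). It was at 159, 254 and 141 CPM in Tn, and at 42.1, 2.71 and 3.15 in Teff1, 12.5, 2.06 and 2.36 in Teff2 and 7.03, 1.73 and 1.61 in Tex. The Tn libraries lay above all others, and replicate 1 was the highest library of each activated state. On the log2 scale the difference of Itgae from Tn was -3.53 in Teff1 (SE 1.06, adjusted p = 0.0161 by edgeR), -5.02 in Teff2 (SE 1.14, adjusted p = 0.00366) and -5.74 in Tex (SE 1.19, adjusted p = 0.00185). Replicate 1 stood above the mean of replicates 2 and 3 by 3.64 in Teff1, 2.27 in Teff2 and 1.80 in Tex on the log2(CPM + 0.5) scale. Of all tested genes, 0.0279%, 0.635% and 1.24% stood as high in replicate 1 of these states. The Teff1 value rested on that library, since without it the log2 difference between Teff1 and Tn was -5.96. The Teff1 call was lost without Teff1 replicate 3 (log2 -3.03, adjusted p = 0.0538) and without Tn replicates 1 and 3 (log2 -4.00, adjusted p = 0.0623). The gene Haspin (listed as Gsg2) lies within the Itgae locus on the same assembly, and the counting is not stated to use strand. Haspin itself was at 34.3 CPM in Tn and 31.7, 22.3 and 23.7 in the activated states.

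Itgav encodes the alpha V chain (chr2:83722303-83806917). It was at 40.8, 36.2 and 38.8 CPM in Tn, 84.0, 65.2 and 51.1 in Teff1, 134, 150.2 and 175 in Teff2 and 195, 129 and 213 in Tex. Tn, Teff1 and the day 5 states formed 3 steps that did not overlap, and Teff2 and Tex overlapped with each other. Itgav rose 1.73-fold from Tn in Teff1 (log2 0.79, SE 0.22, adjusted p = 0.0109 by edgeR), 3.96-fold in Teff2 (log2 1.99, SE 0.23, adjusted p = 4.47e-05) and 4.62-fold in Tex (log2 2.21, SE 0.23, adjusted p = 1.97e-05). The Teff1 call was lost without replicate 1 of every state (log2 0.63, adjusted p = 0.0602) and without Tn replicates 1 and 3 (log2 0.87, adjusted p = 0.114).

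Itgav was also the 1 gene of the 10 called between day 2 and day 5 of the TIM-3- cells, where 0.670% of all genes were called and 0.558% were higher. It rose 2.29-fold from Teff1 to Teff2 (log2 1.20, SE 0.22, 95% interval 0.72 to 1.68, adjusted p = 0.0324 by edgeR). The call was lost without Teff1 replicate 2 (log2 1.18, adjusted p = 0.152), Teff1 replicate 3 (log2 1.03, 0.121), Teff2 replicate 2 (log2 1.21, 0.0565) or Teff2 replicate 3 (log2 1.08, 0.150), and in a fit of the 6 libraries of these states alone (log2 1.21, 0.0882). Itga6 had a log2 difference of -0.83 from Teff1 to Teff2 (95% interval -1.36 to -0.29, adjusted p = 0.168), with no overlap between the states. The median log2 difference of the 10 genes from Teff1 to Teff2 was -0.02.

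Itgb3 encodes the beta 3 chain, a partner of alpha V in the vitronectin receptor and of the platelet chain alpha IIb (chr11:104608000-104670476). It was at 40.2, 31.8 and 56.9 CPM in Tn, 13.2, 13.6 and 13.1 in Teff1, 8.77, 20.7 and 53.1 in Teff2 and 13.0, 24.3 and 57.6 in Tex. The Teff1 libraries lay close together below Tn, while the day 5 libraries ran from below Teff1 to the level of Tn, in the same order of replicates in Teff2 and Tex. Itgb3 fell 3.23-fold from Tn in Teff1 (log2 -1.69, SE 0.60, adjusted p = 0.0354 by edgeR). This call was lost without Tn replicate 1 (log2 -1.74, adjusted p = 0.0636), Tn replicate 3 (log2 -1.43, 0.109), both of these (log2 -1.27, 0.301) or any Teff1 replicate (log2 -1.70 to -1.66, 0.0795 to 0.0944). Compared with Tn, the log2 difference was -0.64 in Teff2 (95% interval -1.93 to 0.64, adjusted p = 0.384) and -0.44 in Tex (95% interval -1.72 to 0.83, adjusted p = 0.545). Without Teff2 replicate 3, its highest Teff2 library, Itgb3 was called lower in Teff2 (log2 -1.53, adjusted p = 0.0495). Markers of platelets and megakaryocytes, which carry beta 3, summed to 32.8, 8.10 and 18.7 CPM in Tn replicates 1, 2 and 3 and to 0.451 to 6.27 in the activated libraries, and their part in the Tn level of Itgb3 was not tested.

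Itga6 encodes the alpha 6 chain of laminin receptors (chr2:71786886-71858427). It was at 126, 144 and 108 CPM in Tn, 66.8, 109 and 69.8 in Teff1, 34.5, 50.3 and 53.5 in Teff2 and 28.3, 41.9 and 42.7 in Tex. Teff1 replicate 2 reached the range of Tn, and all day 5 libraries lay below the Teff1 range. Itga6 fell 2.73-fold from Tn in Teff2 (log2 -1.45, SE 0.25, adjusted p = 6.41e-04 by edgeR) and 3.35-fold in Tex (log2 -1.74, SE 0.25, adjusted p = 1.76e-04). In Teff1 the log2 difference was -0.62 (SE 0.24, 95% interval -1.15 to -0.09, adjusted p = 0.0506). This value sat at the threshold. It was called without Teff1 replicate 2 (log2 -0.87, adjusted p = 0.0183), with the replicate block (0.0122), upper-quartile (0.0177) or RLE (0.0495) scaling, limma (0.0499) and a fit of these 2 states alone (0.0487).

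Itgal and Itgb2 encode the chains of LFA-1, the integrin that holds a T cell to the cell it recognises. Itgal (chr7:127296139-127335137) was at 650.4, 619 and 640.4 CPM in Tn, 907, 819.6 and 640.5 in Teff1, 1002, 715 and 727 in Teff2 and 1009, 686 and 806 in Tex. The activated libraries spread widely, and the lowest Teff1 library lay within the range of Tn. The log2 difference from Tn was 0.31 in Teff1 (95% interval -0.12 to 0.74, adjusted p = 0.212 by edgeR), 0.35 in Teff2 (95% interval -0.08 to 0.78, adjusted p = 0.156) and 0.39 in Tex (95% interval -0.04 to 0.82, adjusted p = 0.116).

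Itgb2 (chr10:77530329-77565708) was at 439.6, 460.3 and 481 CPM in Tn, 341, 422 and 344 in Teff1, 407, 418 and 373 in Teff2 and 493, 431 and 442 in Tex. Teff1 and Teff2 lay below Tn without overlap, and Tex overlapped with Tn. The log2 difference from Tn was -0.32 in Teff1 (95% interval -0.62 to -0.02, adjusted p = 0.0733 by edgeR, 0.0472 without Teff1 replicate 2), -0.21 in Teff2 (95% interval -0.51 to 0.09, adjusted p = 0.235) and -0.02 in Tex (95% interval -0.32 to 0.28, adjusted p = 0.930). Itgal and Itgb2 were the 2 genes of the 10 that were called in none of the 5 comparisons by edgeR with TMM scaling. With DESeq2 Itgb2 was called lower in Teff1 than in Tn (adjusted p = 0.0476).

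Itga1 encodes the alpha 1 chain of a collagen receptor (chr13:114958079-115101964) and was hardly detected. It had 16, 3 and 22 counts in the Tn libraries, 2, 0 and 0 in Teff1, 1, 0 and 0 in Teff2 and 11, 0 and 0 in Tex. All counts in activated cells came from replicate 1. The pooled ratio of Tn to Teff1 was 25.8 (counting interval 6.71 to 220.4) and that of Tn to Teff2 was 46.8 (counting interval 7.94 to 1892), and these intervals cover counting error only. Adjusted p-values by edgeR were 0.0265 for Teff1, 0.0208 for Teff2 and 0.164 for Tex, each compared with Tn. The Teff1 call was lost with DESeq2 (adjusted p = 0.0571) and without Tn replicate 1, Tn replicate 3, Teff1 replicate 2 or Teff1 replicate 3 (0.0645 to 0.0968). The Teff2 call was lost without Tn replicate 1, Tn replicate 3, Teff2 replicate 2 or Teff2 replicate 3 (0.0508 to 0.0776). Without both Tn replicates 1 and 3 the adjusted p was 0.471 in Teff1 and 0.382 in Teff2. Without Tex replicate 1, Tex had 0 counts and was called lower (adjusted p = 0.00881). Tn replicate 2, with 3 counts of Itga1, had 3.61 CPM of NK cell markers, and replicates 1 and 3 had 57.7 and 119 CPM. The activated libraries had 2.95 to 28.0 CPM, the highest being Tex replicate 1. The part of such cells in the Itga1 counts was not tested. The gene Pelo lies within the Itga1 locus and was at 11.3 CPM in Tn and 24.0, 20.5 and 23.7 in Teff1, Teff2 and Tex.

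**Figure D2:**
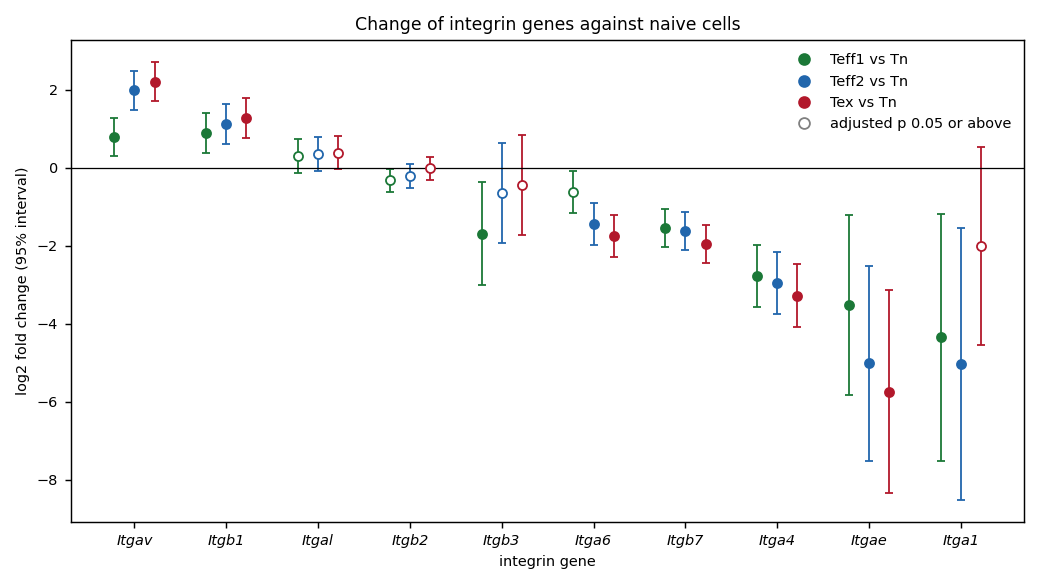
Log2 fold change of each of the 10 integrin genes in Teff1, Teff2 and Tex compared with Tn, with the 95% interval of the edgeR fit; filled points had an adjusted p under 0.05 over all genes tested and open points did not. All points of Itga4, Itgb7 and Itgae lie below 0 and those of Itgb1 and Itgav above 0, while the points of Itgal and Itgb2 are open.

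Tex and Teff2 cells came from the same day and differed in the TIM-3 gate. With group as the only term, 1 of 14332 genes (0.00698%) was called between them, and 0 of the 10 integrin genes, of which 0 also reached an unadjusted p under 0.05 by edgeR and 0 were called by DESeq2 or limma. The median log2 difference of the 10 genes was 0.09. Libraries with equal replicate numbers deviated together in these states (r = 0.85, 0.78 and 0.75 across genes), so a fit within the 3 pairs was also made. In that fit 221 of 13096 genes (1.69%) were called, 0.962% higher and 0.725% lower, and 0 of the 9 integrin genes it tested. Of these 9, 5 reached an unadjusted p under 0.05 by edgeR (Itga4, Itga6, Itgae, Itgb3 and Itgb7). The share of all genes under that unadjusted p was not counted.

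Within the pairs, Itga4 was lower in Tex in 3 of 3, with log2 differences of -0.25, -0.43 and -0.34 (fitted difference -0.35, SE 0.08, adjusted p = 0.0655 by edgeR with the replicate block). Itga6 was lower in 3 of 3, at -0.28, -0.26 and -0.32 (fitted difference -0.30, SE 0.08, adjusted p = 0.121). Itgae was lower in 3 of 3, at -0.79, -0.20 and -0.44 (fitted difference -0.62, SE 0.20, adjusted p = 0.177). These 3 alpha chain genes are also genes that fell from Tn to Teff2, and the comparisons share the Teff2 libraries. Itgb2 was higher in 3 of 3 pairs, at 0.28, 0.04 and 0.24 (fitted difference 0.18, SE 0.08, adjusted p = 0.316), and Itgb3 in 3 of 3, at 0.54, 0.23 and 0.11 (fitted difference 0.27, SE 0.11, adjusted p = 0.266). None of these passed the threshold. Itgal, Itgb1 and Itgav were higher in 2 of 3 pairs and Itgb7 was lower in 2 of 3. For Itgal the paired interval was narrow, at a log2 difference of 0.03 (95% interval -0.16 to 0.21).

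**Figure D3:**
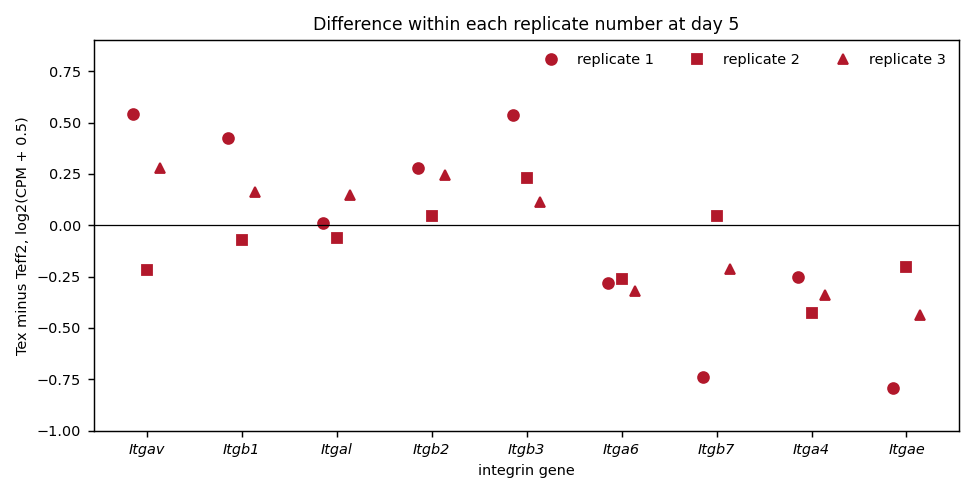
Difference between Tex and Teff2 in log2(CPM + 0.5) within each replicate number, for 9 integrin genes; each point is a pair of libraries. Itga4, Itga6 and Itgae lie below 0 in 3 of 3 pairs and Itgb2 and Itgb3 above 0 in 3 of 3, with no adjusted p under 0.05.

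Ratios between chains that share a receptor or compete for a partner were formed within each library, where library scaling cancels. They are ratios of counts, not of molecules, because the genes differ in length, so only their change between states can be read. For each ratio an exact two-sided permutation test compared 3 libraries with 3, for which the smallest possible p is 0.1, and over the 45 tests of 9 ratios the smallest adjusted p was 0.161. No ratio could therefore pass 0.05, and the values below are given with this limit.

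Itgb7 and Itgb1 compete for the alpha 4 chain. The Itgb7/Itgb1 ratio was 7.47, 15.8 and 8.64 in Tn, 2.49, 1.99 and 1.23 in Teff1, 2.46, 1.11 and 1.16 in Teff2 and 1.10, 1.21 and 0.891 in Tex. Every activated library was below every Tn library, by -2.46, -2.78 and -3.25 on the log2 scale in Teff1, Teff2 and Tex (exact permutation p = 0.1 each). The balance of the chain genes that can pair with alpha 4 thus lay further toward beta 1 in activated cells than in Tn.

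The Itga4/Itgb1 ratio, of the VLA-4 chains, was 5.74, 10.0 and 5.56 in Tn and 0.848, 0.454 and 0.387 in Teff1. It was 0.464, 0.208 and 0.572 in Teff2 and 0.290, 0.162 and 0.404 in Tex. The Itga4/Itgb7 ratio moved less, from 0.768, 0.634 and 0.644 in Tn to 0.340, 0.228 and 0.314 in Teff1, and to between 0.134 and 0.494 at day 5. Relative to both of its beta partners, the alpha 4 gene was thus lower in every activated library than in every Tn library. The Itgae/Itgb7 ratio was 0.160 to 0.254 in Tn and 0.00659 to 0.137 in the activated libraries, with replicate 1 the highest in each activated state.

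The Itga6/Itgb1 ratio separated all 4 states. It was 1.27, 2.27 and 1.06 in Tn, 0.542, 0.607 and 0.372 in Teff1, 0.237, 0.217 and 0.268 in Teff2 and 0.144, 0.190 and 0.192 in Tex. No state overlapped with the next, including Teff2 and Tex, where the log2 difference was -0.46 (exact permutation p = 0.1, the smallest possible). It was the only ratio of the 9 without overlap in all 5 comparisons. Over all 9 ratios, 28 of the 45 tests had no overlap. With 0.1 as the smallest possible p, such a separation of Teff2 from Tex among 9 ratios could arise by chance. How often ratios of other gene pairs separate the states was not counted. The Itgav/Itgb3 ratio, unlike Itga6/Itgb1, was higher in every activated library than in Tn. It was 1.02, 1.14 and 0.682 in Tn and 6.37, 4.78 and 3.90 in Teff1. At day 5 it was 15.2, 7.25 and 3.30 in Teff2 and 15.0, 5.29 and 3.69 in Tex. The Itgal/Itgb2 ratio of LFA-1 was 1.33 to 1.48 in Tn and 1.59 to 2.66 in the activated libraries, without overlap.

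**Figure D4:**
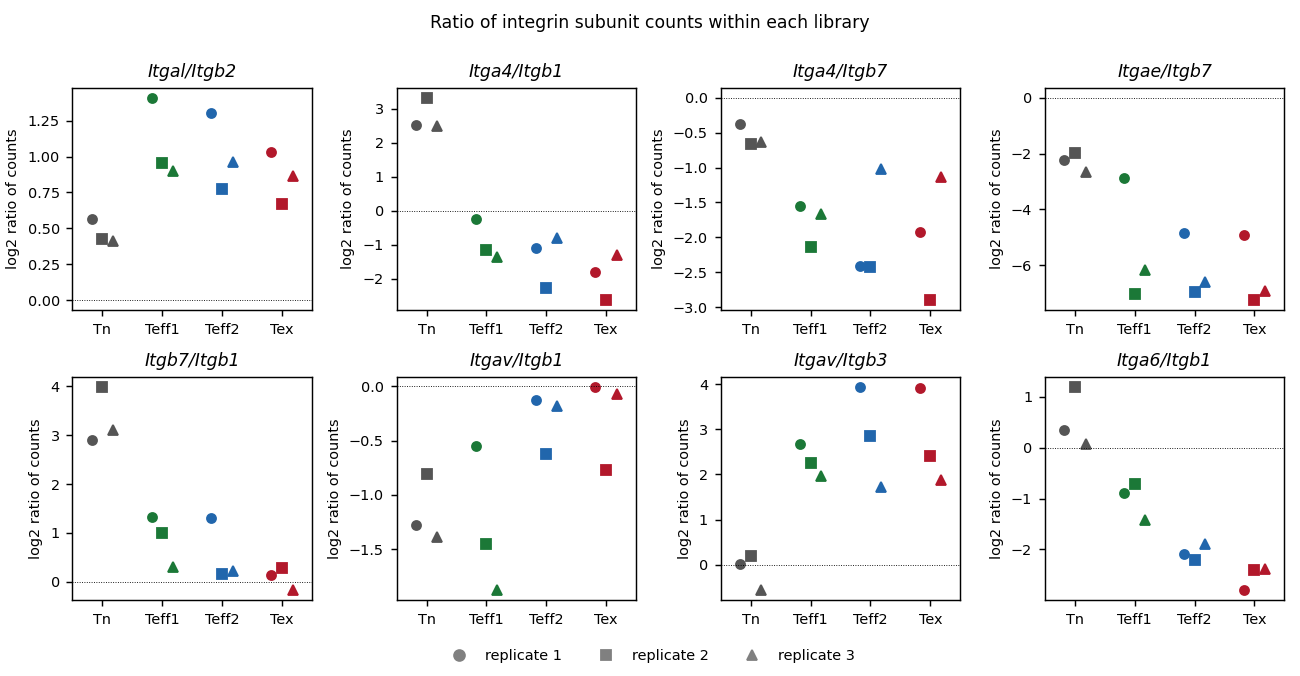
Log2 ratio of the counts of integrin chain genes within each of the 12 libraries, by state, for 8 of the 9 ratios; marker shapes are replicates 1 to 3 and the dotted line is a ratio of 1. Itgb7/Itgb1 and Itga4/Itgb1 are lower in every activated library than in Tn, Itgav/Itgb3 is higher, and Itga6/Itgb1 steps down from state to state without overlap.

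The other 16 integrin chain genes were counted as a group, and 13 of them could be tested. In each of the 3 comparisons with Tn 1 rose, Itga3, and 7 fell, with median log2 differences of -2.38, -2.07 and -2.19. Over all genes tested, 24.5%, 25.6% and 27.3% rose and 24.5%, 23.3% and 25.6% fell. The 7 were Itgam, Itgax, Itgad, Itga2b, Itga2, Itgb5 and Itga9. Without Tn replicates 1 and 3 the counts were 0 higher and 3 lower in Teff1, 1 and 4 in Teff2 and 1 and 3 in Tex, where 10.0%, 10.8% and 13.1% of all genes fell. Of these 13 genes 0 were called between Teff1 and Teff2 or between Teff2 and Tex.

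Itga3 encodes the alpha 3 chain, a laminin receptor chain that pairs with beta 1. It was at 5.49, 5.58 and 4.13 CPM in Tn, 19.9, 9.17 and 11.2 in Teff1, 18.9, 72.2 and 53.9 in Teff2 and 22.3, 62.8 and 62.9 in Tex. All activated libraries exceeded Tn, and replicate 1 was the lowest at day 5. Compared with Tn, the log2 difference was 1.40 in Teff1 (SE 0.51, adjusted p = 0.0379 by edgeR), a call lost in 8 of 15 alternatives, among them without Teff1 replicate 1 (0.135) or any 1 Tn library (0.0727 to 0.113), 3.25 in Teff2 (SE 0.53, adjusted p = 5.06e-04) and 3.28 in Tex (SE 0.53, adjusted p = 4.07e-04). Thus Itga3 and Itga6, which both encode laminin-binding alpha chains, changed in opposite directions at day 5.

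Itgam, Itgax and Itgad encode the alpha M, alpha X and alpha D chains, which pair with beta 2 mainly on myeloid cells and lie with Itgal on chromosome 7. Itgam was at 23.9, 2.93 and 38.7 CPM in Tn replicates 1, 2 and 3 and at most 0.698 in any activated library. Itgax was at 23.0, 2.99 and 31.2 CPM in Tn, and Itgad at 10.8, 7.21 and 15.5. Tn replicate 2 was the lowest for all 3, as it was for the macrophage and monocyte markers (70.6 CPM, beside 269 and 139.5 in replicates 1 and 3). In Teff1 the log2 difference from Tn was -7.64 for Itgam (adjusted p = 1.21e-04 by edgeR), -7.96 for Itgax (2.16e-04) and -3.92 for Itgad (0.00474). The part of myeloid cells in the Tn levels of these genes was not tested. Itga2b, the platelet alpha IIb chain, was at 26.7, 7.08 and 14.4 CPM in Tn, in the same order of libraries as the platelet markers. Itga2, Itgb5 and Itga9 were each at or below 8.21 CPM in all libraries. The calls of Itga2, Itga2b, Itga9 and Itgad in Teff1 compared with Tn were lost without Tn replicates 1 and 3 (adjusted p = 0.241, 0.369, 0.0619 and 0.0890), and that of Itga2b also without Tn replicate 1 (0.0755), Teff1 replicate 2 (0.0651) or Teff1 replicate 3 (0.0671).

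**Figure D5:**
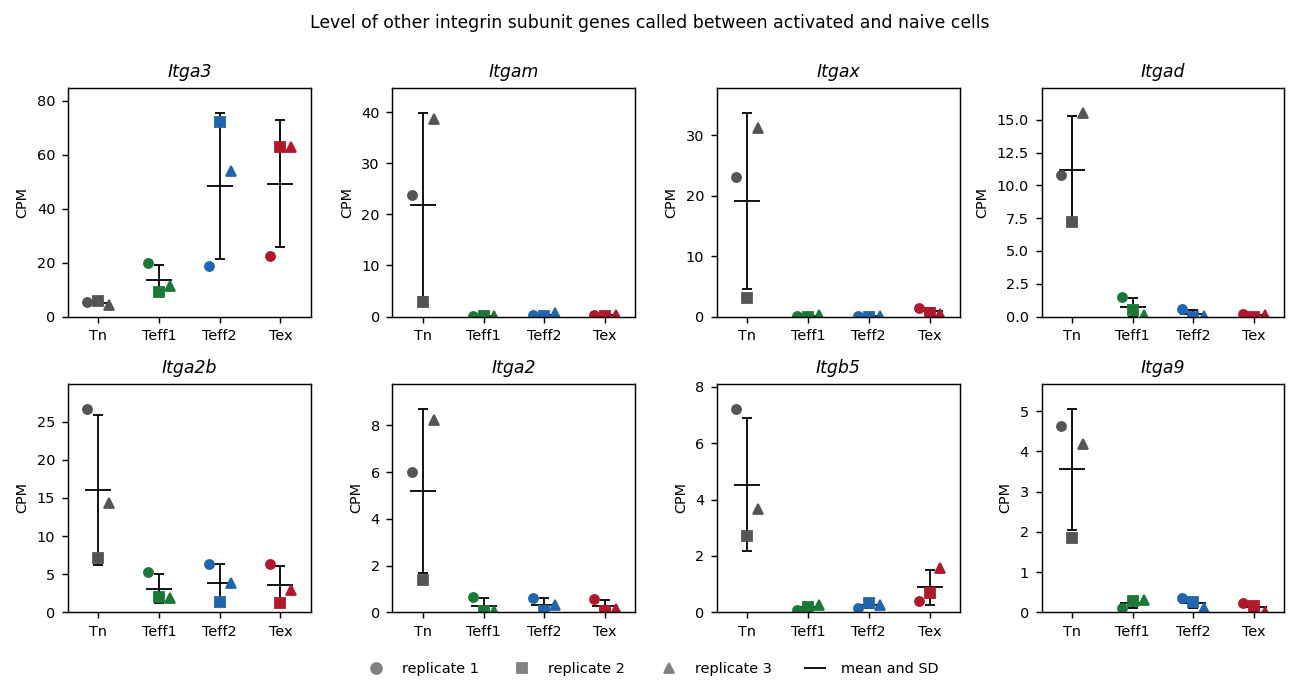
Level (CPM on TMM-scaled library sizes, linear axis from 0) in the 12 libraries of the 8 called integrin genes outside the 10; marker shapes are replicates 1 to 3, and the bar with whiskers is the mean and SD of 3. Itga3 is higher in every activated library than in Tn, and the means of the other 7 are lower in each activated state than in Tn, with Tn replicate 2 the lowest Tn library for each.

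Of 36 listed genes of inside-out activation and adaptors, the signals that switch integrins on, 33 could be tested. In Teff1 3 rose and 17 fell compared with Tn, in Teff2 3 rose and 17 fell, and in Tex 4 rose and 17 fell, with median log2 differences of -0.74, -0.54 and -0.43. Beside this, 24.5%, 25.6% and 27.3% of all tested genes rose and 24.5%, 23.3% and 25.6% fell. Without Tn replicates 1 and 3 the counts were 2 higher and 13 lower, 2 and 10, and 2 and 11, beside the same 10.0%, 10.8% and 13.1% of all genes lower. From Teff1 to Teff2 0 of the 33 were called. From Teff2 to Tex 0 were called without the pairing and 1 within pairs, Fyb, the ADAP adaptor that couples the T cell receptor to integrins, which was lower in Tex (log2 -0.60, SE 0.12, adjusted p = 0.0466 by edgeR).

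Rasgrp2 encodes an exchange factor that loads Rap1, the small GTPase upstream of talin. Its mean level fell from 649 ± 106 CPM in Tn to 28.0 ± 7.22 in Teff1, 17.7 ± 0.450 in Teff2 and 14.6 ± 4.51 in Tex (SD, n = 3 libraries each). On the log2 scale this was -4.54 in Teff1 (adjusted p = 1.79e-06 by edgeR), -5.20 in Teff2 (5.23e-07) and -5.47 in Tex (2.97e-07). Sipa1, which inactivates Rap1, fell as well, from 407 ± 54.2 CPM in Tn to 145 ± 28.2 in Teff2 (log2 -1.49, adjusted p = 1.48e-04). Rasgrp1, an exchange factor for Ras in T cells, fell from 362 ± 35.2 CPM to 111 ± 8.92 in Tex (log2 -1.70, adjusted p = 4.43e-05). Other genes of the same list, looked up after the values were seen, were mixed in Teff1. Apbb1ip, Rassf5, Stk4 and Crk fell as well (log2 -1.18, -0.88, -0.73 and -0.55, adjusted p = 7.37e-04, 6.74e-04, 0.00416 and 0.0200 by edgeR). Crkl was not called (log2 -0.04, adjusted p = 0.875). Rap1 itself is encoded by Rap1a and Rap1b. Rap1a rose from 117 to 166 CPM in Teff1 (log2 0.50, adjusted p = 0.0403). Rap1b was at 436 CPM in Tn and 382 in Teff1 and was not called (log2 -0.19, adjusted p = 0.291). Rapgef1, another exchange factor, was at a log2 difference of -0.07 in Teff1 (adjusted p = 0.685) and fell in Teff2 (log2 -0.43, adjusted p = 0.0207).

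Cyth1 encodes cytohesin-1, which binds the beta 2 tail. It fell from 330.3 ± 21.6 CPM in Tn to 141 ± 11 in Teff1, 109 ± 28.3 in Teff2 and 104 ± 10.0 in Tex (log2 -1.23, -1.60 and -1.67, adjusted p = 2.63e-04, 4.62e-05 and 2.95e-05 by edgeR). Skap2, an adaptor partner of ADAP, fell from 14.5 ± 4.73 to 5.77 ± 1.69 CPM in Teff1 (log2 -1.33, adjusted p = 0.0101). At day 5 Skap2 was at 11.5 ± 3.83 CPM in Teff2 and 13.1 ± 4.53 in Tex, and both overlapped with Tn. The Skap2 call was lost without replicate 1 of every state (0.0535) and without Tn replicates 1 and 3. Skap1 of the same list, looked up after the values were seen, fell from 162 ± 13.7 to 85.3 ± 3.91 CPM in Teff1 (log2 -0.93, adjusted p = 1.43e-04). Tln1 and Fermt3 encode talin and kindlin-3, the proteins that bind the beta tails, and were looked up after the values were seen. Tln1 fell from 1017 ± 114 CPM in Tn to 473 ± 73.3 in Teff1, 471 ± 96.9 in Teff2 and 470.5 ± 85.4 in Tex (log2 -1.11 each, adjusted p = 0.00111, 0.00104 and 8.87e-04). Fermt3 was at 277 ± 12.1 CPM in Tn and 285 ± 29.8, 327 ± 104 and 331 ± 85.4 in the activated states, with adjusted p of 0.910, 0.440 and 0.391.

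Few genes of this list rose. Cd81 encodes a tetraspanin, a membrane protein that associates with integrins, and rose from 9.96 ± 5.27 CPM in Tn to 37.9 ± 5.87 in Teff2 and 38.4 ± 12.2 in Tex (log2 1.92 and 1.94, adjusted p = 0.00235 and 0.00195 by edgeR). Vcl, the talin-binding protein vinculin, rose from 5.16 ± 3.29 to 19.5 ± 9.67 CPM in Tex (log2 1.92, adjusted p = 0.0497), a call at the threshold that was lost in 9 of 15 alternatives.

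Integrin ligands were the third group, with 28 listed and 19 tested. Compared with Tn 6 rose and 8 fell in Teff1, 7 rose and 6 fell in Teff2, and 7 rose and 7 fell in Tex, with median log2 differences of -1.08, 0.26 and 0.51. Of all genes, 24.5%, 25.6% and 27.3% rose and 24.5%, 23.3% and 25.6% fell. Without Tn replicates 1 and 3 the counts were 4 higher and 3 lower, 4 and 4, and 4 and 3, where 9.96%, 11.3% and 13.1% of all genes rose. From Teff1 to Teff2 2 rose and 0 fell, where 0.558% of all genes rose and 0.112% fell, and from Teff2 to Tex 0 were called.

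Lama5 encodes the laminin alpha 5 chain, a ligand of alpha 6 beta 1 and alpha 3 beta 1. From 0.451 ± 0.0985 CPM in Tn it reached 9.20 ± 5.81 at day 2 and, at day 5, 53.7 ± 9.65 in Teff2 and 70.1 ± 22.8 in Tex (SD, n = 3 libraries each). It rose from Tn in all 3 states (log2 4.33, 6.87 and 7.25, adjusted p = 5.92e-05, 4.16e-06 and 2.64e-06 by edgeR) and from Teff1 to Teff2 (log2 2.54, adjusted p = 0.0163). The Teff1 to Teff2 call was lost without Teff1 replicate 1, Teff1 replicate 3 or Teff2 replicate 3 (0.0645 to 0.0739). It was also lost in a fit of these 2 states alone (0.0591). Lamc1, the laminin gamma 1 chain, looked up after the values were seen, went from 5.16 ± 3.71 CPM in Tn to 51.1 ± 21.5 in Teff1 and 91.2 ± 26.3 in Teff2 (log2 3.30 and 4.13, adjusted p = 0.00126 and 3.67e-04). The other listed laminin chain genes, Lama1, Lama2, Lama4, Lamb1 and Lamb2, did not pass the filter on low counts.

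Spp1, which encodes osteopontin, a ligand of alpha V and alpha 4 integrins, rose from 0.186 ± 0.200 CPM in Tn to 29.1 ± 18.6 in Teff1, 226 ± 148 in Teff2 and 273 ± 108 in Tex (adjusted p = 1.19e-04, 1.49e-05 and 1.12e-05 by edgeR). Lrrc32 encodes GARP, which holds latent TGF-beta where alpha V integrins can release it, and rose from 2.07 ± 2.07 to 30.3 ± 14.4 CPM in Teff1 (log2 3.87, adjusted p = 0.00128). Icam2, a ligand of LFA-1, fell from 66.5 ± 11.3 CPM in Tn to 31.5 ± 2.22, 23.1 ± 4.60 and 21.4 ± 3.78 in Teff1, Teff2 and Tex (log2 -1.08, -1.53 and -1.64, adjusted p = 0.00105, 1.23e-04 and 6.73e-05). Icam1 of the same list was looked up after the values were seen. It was at 76.5 ± 4.93 CPM in Tn and 66.6 ± 6.11, 75.0 ± 51.0 and 70.6 ± 34.3 in these states. In Teff1 Icam1 was not called (log2 -0.20, adjusted p = 0.706 by edgeR). Vcam1, the ligand of VLA-4, was at 25.7 ± 10.1 CPM in Tn and at most 0.0183 on average in an activated state (adjusted p = 1.31e-05 in Teff1). Fn1, fibronectin, went from 5.69 ± 4.28 CPM in Tn to 0.163 ± 0.148 in Teff1 (adjusted p = 8.11e-04), a call lost without Tn replicates 1 and 3 (0.112). Vcam1 and Fn1 are also genes of macrophages and stromal cells, whose markers were higher in Tn, and the part of such cells was not tested. Tnc, tenascin-C, was called at day 5 (adjusted p = 0.0308 and 0.0243), but nearly all of it came from replicate 1, with 24.6, 0.645 and 1.29 CPM in Teff2. Without that replicate the adjusted p was 0.240 in Teff2 and 0.186 in Tex.

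For each of the 10 genes, the genes whose levels followed it most closely over the 12 libraries were sought among 8563 genes by Pearson's r of log2(CPM + 0.5). These values are descriptions, because the 12 libraries fall into 4 states that most genes separate. For Itga4 they were Pgap1, Zfp945 and Kif21b (r = 0.992, 0.984 and 0.984), for Itgb7 H2-T10, Slc43a2 and Gba2 (0.987, 0.983 and 0.981) and for Itgae Maml1 and Nr1d2 (0.988 and 0.987). For Itgb1 they were Arhgap21, Ifng and Bspry (0.979, 0.973 and 0.973), of which Ifng encodes the cytokine interferon gamma, and for Itgav Abhd4, Rgs8 and Tmem106c (0.980, 0.976 and 0.971). Itga6 was most like Trpc4ap, Fbxo7 and Ncoa3 (0.988, 0.982 and 0.969). For Itgal they were Mfhas1, Ulbp1 and Bloc1s2a (0.978, 0.939 and 0.935), for Itgb2 Unc13d, Ric8 and Golga2 (0.922, 0.905 and 0.889) and for Itgb3 Il18r1, Hip1r and Sipa1l2 (0.911, 0.911 and 0.909). The genes most like Itga1 were Gzma, a granzyme of NK and cytotoxic T cells, Cd74, of antigen-presenting cells, and Spib, of B and dendritic cells (0.978, 0.919 and 0.906). Among the 10 genes, the highest values were those of Itgb7 with Itgae (0.902) and with Itga4 (0.895), and the lowest those of Itgb1 with Itgae (-0.963) and with Itgb7 (-0.918).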

How the data were processed

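The authors deposited whole-number read counts for 34573 gene symbols in 12 libraries, and 11535 symbols had no count. The authors' second deposited matrix holds normalized values on a log2 scale for 21574 genes. Its transformation is not stated, and it served as an alternative only. Per the submitters' processing notes, the genome build was mm10, and HISAT2, HTSeq, DESeq2, BWA and Juicer were used, with no version or role given. Strandedness of the counting is not given in the sources used here. The Hi-C samples of the series were not analysed here.

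CPM were computed on TMM-scaled library sizes. Tests were edgeR's quasi-likelihood F tests on the counts (edgeR 4.0.16, R 4.3.3, TMM, filter by expression with a minimum count of 10, all 12 libraries, group as the term), with Benjamini-Hochberg adjustment over 14332 genes and a threshold of 0.05. Intervals are 95%. Ratios added 0.5 to each count and used exact permutation tests (scipy 1.17.1). The unpaired edgeR step was tested on simulated counts with known changes in Teff1 compared with Tn. The simulated spread was set below the one fitted to these libraries. The other fits and the permutation tests were not tested in this way. Alternatives were RLE and upper-quartile factors, DESeq2 1.42.0, limma 3.58.1 on the authors' log2 values, no filter, fits of fewer libraries and a replicate block.

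Replicate numbers were checked by correlating deviations from the group mean across genes. Equal numbers gave r of 0.85, 0.78 and 0.75 between Tex and Teff2, so these libraries were treated as pairs from the data, with no label saying so. Other comparisons had at least 1 r under 0.1 and were not paired.

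The 10 genes and the lists were chosen with earlier results of these data known. Genes outside the 10 were named where called, integrin subunits from 1 CPM in the higher group and the other lists from 5 CPM, with a log2 difference of at least 1 for the latter and up to 3 per direction and comparison; the closest-following genes were the 3 with the highest r and a mean of at least 10 CPM. Of these, 1 is not reported here. Genes looked up outside this rule are marked. Coordinates and promoters are from RefSeq GRCm38.p6. Exon lengths and proteins were not used here, so levels are compared between states and not between genes. The counting of Itgae, Itga1, Itga4 and Itgav could include reads of genes or pseudogenes that overlap them.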

Additional observations from a re-analysis of the deposited data

How the results depend on the processing

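Of 21 called changes of the 10 genes, 15 were called in every alternative run, and of 55 called changes of other named genes 35 were. The number of the 10 genes called in Teff1 compared with Tn went from 7 to 3 without Tn replicates 1 and 3, a fit with 1 Tn library in which called genes also fell from 48.9% to 20.0% of all genes, and ran from 4 to 7 over the leave-one-out fits. In Teff2 compared with Teff1 it went from 1 to 0 in a fit of those states alone and ran from 0 to 1, in Teff2 compared with Tn from 6 to 7 and in Tex compared with Tn from 6 to 7 when 1 library was left out. It was 0 in every fit of Tex with Teff2. With a replicate block on all 12 libraries it was 8 for Teff1, 7 for Teff2 and 7 for Tex compared with Tn, 1 from Teff1 to Teff2 and 0 from Teff2 to Tex, and with a replicate block on the 6 day 5 libraries it was 0. The block added Itga6 in Teff1 (log2 -0.65) and Itga1 in Tex (log2 -2.55), both compared with Tn.

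Every change that turned direction was uncalled, and the cause was not tested. From Teff1 to Teff2, Itga4 was at 0.077 and Itgal at -0.018 without replicate 1 of every state, and Itgal at -0.011 with no filter, which also gave 0.036 for Itgb2 in Tex compared with Tn. Over the leave-one-out fits the log2 difference from Teff1 to Teff2 ran from -2.55 to 1.86 for Itga1, -0.57 to 0.078 for Itga4, -2.85 to 0.96 for Itgae, -0.13 to 0.15 for Itgal and -0.29 to 0.069 for Itgb7. From Teff2 to Tex it ran from -1.87 to 4.89 for Itga1, -0.73 to 0.072 for Itga4, -1.77 to 0.63 for Itgae, -0.13 to 0.21 for Itgal, -0.015 to 0.33 for Itgb1 and -0.56 to 1.11 for Itgb3, and from Tn to Tex it ran from -0.062 to 0.034 for Itgb2. Depth limits Itga1, whose 41 counts in Tn lie in 3 libraries. The counting intervals of Itga1 and the floor of 3 counts cover counting error only.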
